A study of Mus musculus with 20 samples.

Results

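Liver tissue taken away from visible metastases was compared with liver of mice that received no tumor cells. The comparison rests on 3 of the 20 RNA-seq libraries of the series, chosen by their labels from the 14 libraries of tissue. Normal liver (con) was sampled at day 0 from mice injected with normal saline and is represented by 2 libraries. Tumor-free liver remote from the tumor (L-con) was sampled 12 days post-injection (dpi) of 1000000 Mc38 cells, and is represented by 1 library. Mc38 is a colon adenocarcinoma line derived from C57BL/6 mice, and the cells reached the liver from the spleen by the portal vein. All mice were wild-type C57BL/6, and the methods give an age of 6 to 8 weeks. The labels give them as male and the methods as female. The Y-linked gene Ddx3y had 1408 and 1227 counts in con and 1373 in L-con, and Xist had 0 in all 3 libraries. Values of liver with a low tumor content at 9 dpi (Lt, 2 libraries) and of tissue with a high tumor content at 12 dpi (Ht, 2 samples) are given beside those of L-con, with no test, since every tumor-bearing group shares the same con libraries.

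L-con differs from con in the injected cells, the day and the single library that stands for it, and these cannot be told apart. One library on one side gives no spread of its own, so no p-value is given for any gene. A gene was called above when L-con exceeded the higher con library by at least 2-fold, and below when it lay under the lower con library by at least 2-fold. The fold is taken on log2(CPM + 0.5), which understates the difference of genes with few reads. CPM is the count per 1000000 of an effective library size, which is the total counts times a TMM scaling factor. That factor was 0.687 and 0.710 in con and 0.726 in L-con, so in these libraries CPM is higher than the plain count per 1000000. Levels are CPM, folds are from the nearer con library, gene positions are on GRCm38, and measured members of a list are those with a mean of at least 10 counts.

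The liver answers tissue injury and inflammation elsewhere in the body through circulating cytokines and hormones. Interleukin-6, signalling through STAT3, and interleukin-1, signalling through NF-kB and C/EBP factors, raise the synthesis of acute-phase plasma proteins such as serum amyloid A and orosomucoid in hepatocytes. Growth hormone acts through STAT5, bone morphogenetic proteins set the production of the iron hormone hepcidin, and PPARα drives the enzymes of fatty acid oxidation during fasting. Resident macrophages, the Kupffer cells, line the sinusoids, whereas monocytes come from the blood.

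The con libraries held 16460310 and 17041650 counts and L-con 16715415. On the TMM-scaled CPM used here, 3 counts, taken as the floor of detection, correspond to 0.265, 0.248 and 0.247 CPM. Hepatocyte markers made the identity of the tissue plain: none of 13 was above or below, and albumin (Alb) stood at 129440.0 and 108750.0 CPM in con and 93589 in L-con. By any amount, 8 of the 13 lay below both con libraries and 4 above both, against 35.3% and 35.1% of all genes. The con libraries themselves differed by at least 2-fold in 751 of 13446 genes (5.59%). Major urinary proteins, pheromone carriers of mouse liver, stood out there: 15 of 20 Mup genes differed by at least 2-fold between the con libraries. Reads of ribosomal RNA genes took 0.0841% and 0.0715% of counts in con and 0.271% in L-con.

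Of 13446 genes with a mean of at least 10 counts over the 3 libraries, 475 (3.53%) were above and 68 (0.506%) were below. Of these, 443 and 54 were protein-coding. The median log2 difference of L-con from the con mean was -0.00077 over all genes, with 5% of genes under -0.59 and 5% over 1.10. By any amount, 35.1% of genes lay above both con libraries and 35.3% below both. In bulk tissue, fewer cells of a type and less RNA per cell cannot be told apart.

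Genes that were high in tumor tissue and at or near 0 in con had reads in the library labelled tumor-free. Versican (Vcan), a matrix proteoglycan, was at 0 and 0.165 CPM in con, 24.4 in L-con and 634 and 579 in Ht. Filamin C (Flnc), an actin cross-linker of muscle, was at 0 in both con libraries, 9.06 CPM in L-con (110 counts), and 186 and 179 in Ht, so that it was at least 34.1-fold higher in L-con than the floor of con. Galectin-7 (Lgals7), a lectin of epithelia, had 42 counts in L-con, the retinol transporter Stra6 had 64 and the BMP antagonist gremlin 1 (Grem1) had 59, each against 0 in con. These 4 genes of the 8 epithelial tumor markers passed the count filter only through L-con. Their number above con, and the 2 that remained above in the step described further on (Flnc and Grem1), are therefore no result. Krt20 and Cdx2 of the same list were at 0 in all 3 libraries. The remaining measured member went the other way, below both con libraries with a log2 difference of -0.71 from the con mean. Vcan, Flnc, Lgals7, Stra6 and Grem1 were each low in L-con beside Lt, where Vcan stood at 101 and 231 CPM.

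The level of such genes in L-con was read as a share of their level in Ht. The rule asked for at most 3 counts in each con library, at least 10 CPM in both Ht samples and at most 1 CPM in every library of sorted F4/80+ or CD11b+ cells of the series. It left 3 genes (Gpr149, Gm13230 and Lgi2), with 8 counts in L-con against 0 and 3 in con, and a median L-con level of 1.19% of that in Ht. That median is the value of Gm13230, which had 2 counts in L-con, fewer than the 3 taken as the floor. Without the limit in sorted cells, a choice made after the data were seen, 145 genes met the rule. Of these, 144 had a count in L-con against 71 and 65 in con, and their summed counts were 137 and 115 in con and 2497 in L-con. The low con numbers follow from the rule, which caps con at 3 counts per gene, whereas L-con is no part of it. The median L-con level of the 145 genes was 4.47% of the Ht level (interquartile range 2.83 to 6.81%). Scaled by total counts, the same rule took 197 genes and gave 2.1%, less than the 4.47%. The same median was 16.7% and 37.4% in the Lt libraries. Of the 145 genes, all but 3 exceeded 1 CPM in a library of sorted F4/80+ or CD11b+ cells, so libraries of sorted host cells held such RNA too, and the part of Mc38 cells in the share was not tested.

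**Figure D1:**
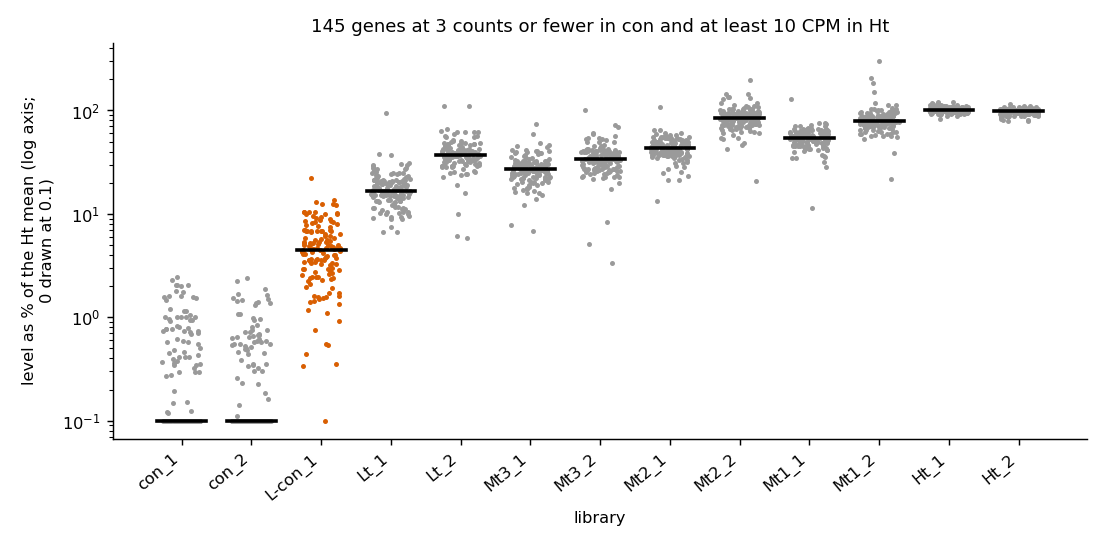
Level of each of the 145 genes with at most 3 counts in each con library and at least 10 CPM in both Ht samples (points) in each tissue library, as a percent of its mean in Ht on a log axis with values of 0 drawn at 0.1, and the median over genes (bars). Mt1 to Mt3 are the groups labelled between Lt and Ht in tumor content. The bar of L-con lies at 4.47%, over both con libraries, which the rule itself holds low, and under the Lt libraries at 16.7% and 37.4%.

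The genes above fell into unequal groups beside Ht. In 351 of 475 (73.9%), L-con lay under both Ht samples, and in 118 (24.8%) L-con lay above both Ht samples. When 1.19% of the mean Ht level, the share from the 3 genes, was taken off the L-con level of each gene, 401 genes remained above (2.98% of all) and 72 were below (0.535%). When 4.47%, the share from the 145 genes, was taken off, 240 genes remained above (1.78% of all), of which 115 came from the 118 and 120 from the 351. Both steps were chosen after the data were seen. The larger one also left 142 genes below (1.06%), and 72 of the 74 that were new had L-con under both Ht samples. The 4.47% is called the Ht share and the 1.19% the smaller share. The smaller share rests on 2 counts of Gm13230 in L-con. Where taking off the Ht share changed how many members of a list were above, the new number is given.

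Of the 475 genes above, 137 had a con mean under 10 counts and so passed the count filter only through L-con. Among the lists this held for 3 of the 6 stress genes above, 2 of the 16 cell cycle genes, 2 of the 13 matrix genes, 1 of the 5 chemokine genes and 1 of the 2 NF-kB genes, and for Moxd1 and Orm3. The Ht share also left 1 gene of complement and coagulation, 1 capillary marker and 5 female-biased genes below.

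**Figure D2:**
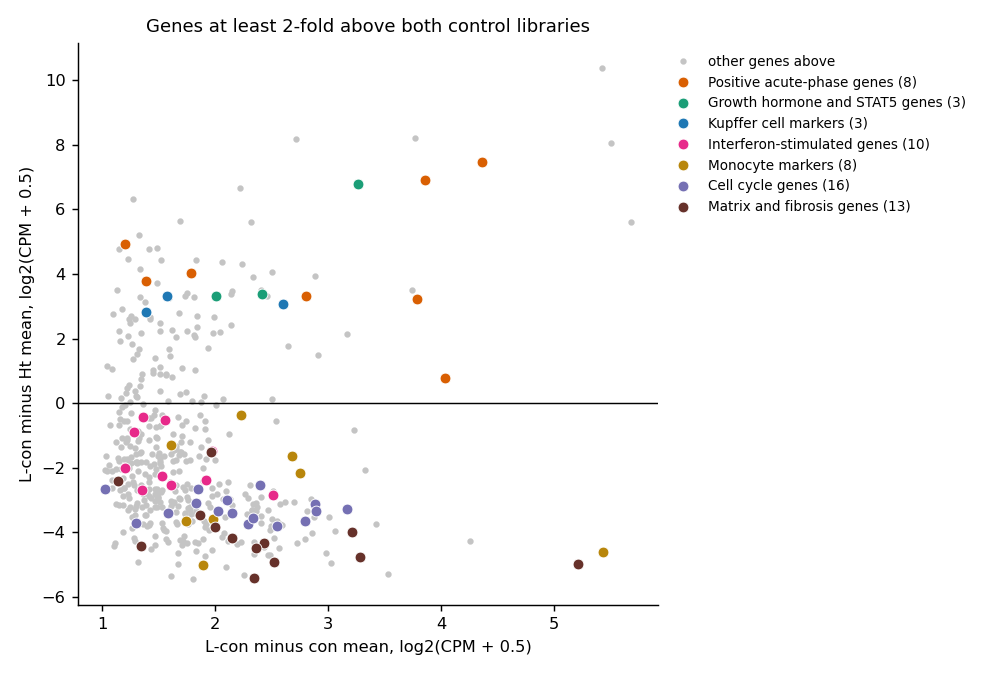
The 475 genes above con, 1 point per gene, by the log2(CPM + 0.5) difference of L-con from the con mean (horizontal) and from the Ht mean (vertical), with 7 gene lists in color. Acute-phase, growth hormone and Kupffer cell genes lie over the line at 0, and interferon-stimulated, monocyte, cell cycle and matrix genes lie under it.

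Acute-phase genes of hepatocytes held several of the genes farthest above con. Of 37 measured members, 8 were above and 1 was below, against 3.53% and 0.506% of all genes, and the median log2 difference was 0.54. All 8 lay above both Ht samples, so that taking off the Ht share could hardly change them. By any amount, 29 lay above both con libraries and 4 below both, against 35.1% and 35.3% of all genes. The median rested on the con library used, at 0.87 without con_1 and 0.23 without con_2.

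Serum amyloid A, an apolipoprotein that replaces others on high-density lipoprotein during inflammation, had 2 of the members farthest above. Saa1 (chr7:46740497-46742980) was at 93.3 and 38.6 CPM in con and 876 in L-con, 9.34-fold over the nearer con library, with 758 and 940.3 in Lt and 7.21 and 6.44 in Ht. Saa2 (chr7:46751790-46754313) was at 37.4 and 10.7 CPM in con and 422 in L-con, 11.1-fold. L-con thus stood beside Lt and far over both con and Ht for both genes. The con libraries differed from each other by more than 2-fold in both, with con_1 the higher.

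Orosomucoids, lipocalin-type carriers of small molecules in plasma, had the member farthest above of all, Orm2. Orm2 (chr4:63362449-63365878) was at 8.58 and 7.52 CPM in con and 117 in L-con, 12.98-fold. Orm3 was at 0.265 and 0.909 CPM in con and 6.75 in L-con, 5.15-fold, and Orm1, the abundant member, at 729 and 814 in con and 1771 in L-con, 2.17-fold. The 3 genes lie side by side on chromosome 4 and are close paralogs, as are Saa1 and Saa2 on chromosome 7, and reads that match several copies may be split between them.

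Lipocalin 2 (Lcn2), which binds bacterial siderophores, was at 8.58 and 1.901 CPM in con, 76.2 in L-con, against 155 and 122 in Lt and 32.4 and 55.6 in Ht. It was 8.44-fold over the nearer con library, though Lt was higher still. Hepassocin (Fgl1), a secreted fibrinogen-like protein of hepatocytes, stood at 352 and 218 CPM in con and 955 in L-con, and Steap4, a metalloreductase, at 194 and 173 in con and 481 in L-con. Serpina3n, a serine protease inhibitor, lay just inside the margin with 479.6 and 482 CPM in con and 938 in L-con, 1.95-fold.

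Other classical members did not leave the con range by the margin. C-reactive protein (Crp), which is a weak acute-phase protein in mice, was at 694 and 674 CPM in con and 710.0 in L-con. The lipopolysaccharide-binding protein gene Lbp was at 216 and 180.0 in con and 219 in L-con, and haptoglobin (Hp) at 4097 and 2554 in con and 4702 in L-con. None of 17 negative acute-phase genes, plasma proteins whose synthesis declines in inflammation, was above or below. Their median was -0.09, or -0.19 without con_1 and -0.12 without con_2. By any amount, 10 lay below both con libraries and 2 above both, against 35.3% and 35.1% of all genes. None of 37 genes of complement and coagulation was above or below (median 0.06, or 0.16 without con_1 and -0.031 without con_2). By any amount, 16 of the 37 lay above both con libraries and 10 below both.

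**Figure D3:**
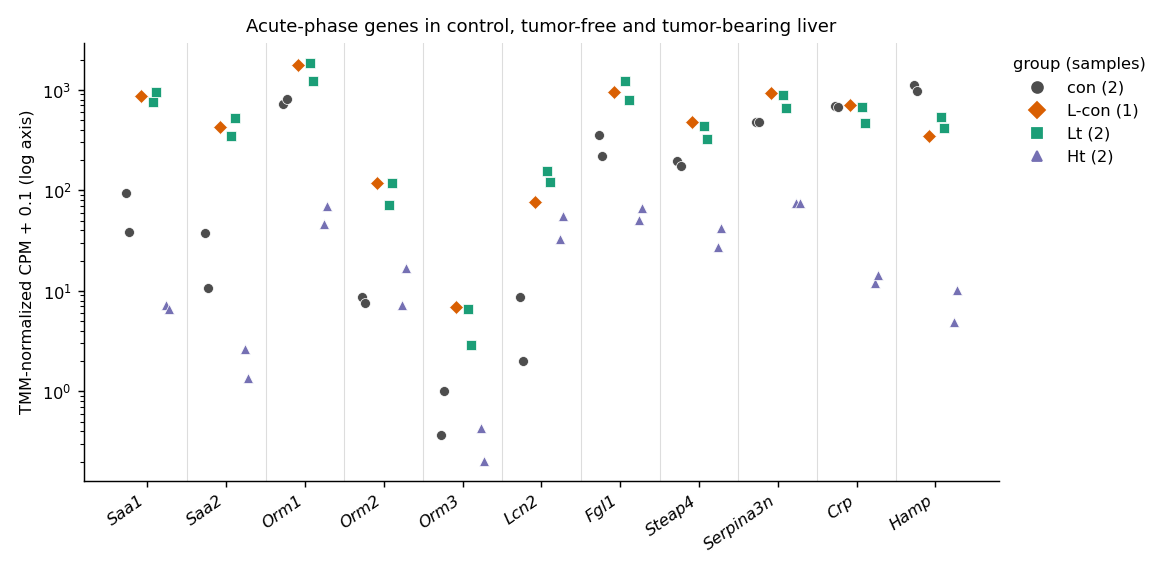
CPM plus 0.1 of acute-phase genes on a log axis in con, L-con, Lt and Ht, 1 point per library or sample. Saa1, Saa2 and Orm2 in L-con lie over both con libraries and beside Lt, and Hamp lies under con.

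Promoters of 3 of the genes that lay farthest above are shown because the letters of a C/EBP site, TTGCNNAA, occur in each. They were read from RefSeq on GRCm38.p6 and run 5′ to 3′ on the gene's strand, from 250 bases before the start of the transcript to 50 after it, with the matching letters in capitals. The Saa1 window is chr7:46742931-46743230 on the minus strand, that of Saa2 chr7:46751583-46751882 on the plus strand and that of Orm2 chr4:63362199-63362498 on the plus strand.
Saa1: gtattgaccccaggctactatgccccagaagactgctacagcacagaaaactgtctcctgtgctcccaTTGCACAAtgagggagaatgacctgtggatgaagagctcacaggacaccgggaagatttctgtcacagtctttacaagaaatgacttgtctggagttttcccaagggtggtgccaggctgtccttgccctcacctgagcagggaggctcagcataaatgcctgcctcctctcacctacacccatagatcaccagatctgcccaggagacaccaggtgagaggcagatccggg
Saa2: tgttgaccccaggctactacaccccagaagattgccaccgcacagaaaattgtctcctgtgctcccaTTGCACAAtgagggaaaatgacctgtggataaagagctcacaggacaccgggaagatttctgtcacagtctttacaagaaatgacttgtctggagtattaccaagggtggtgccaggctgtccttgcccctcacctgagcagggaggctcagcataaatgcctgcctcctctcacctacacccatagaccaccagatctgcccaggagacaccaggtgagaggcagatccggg
Orm2: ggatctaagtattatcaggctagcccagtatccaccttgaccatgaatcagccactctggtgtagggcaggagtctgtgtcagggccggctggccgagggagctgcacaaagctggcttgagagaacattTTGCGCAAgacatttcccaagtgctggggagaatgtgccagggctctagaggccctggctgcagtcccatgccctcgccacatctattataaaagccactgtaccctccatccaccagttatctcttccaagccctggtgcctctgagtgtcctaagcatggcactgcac

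The match lies at -182 to -175 from the start in Saa1, at -183 to -176 in Saa2 and at -120 to -113 in Orm2. On either strand, the letters TTGCNNAA occur in 10.8% of the 32851 RefSeq promoters, and in 15 of the 27 acute-phase genes that have a promoter in the table (55.6%). Here and in the promoter passages below, the share of all is per promoter, whereas a list counts a gene when any of its promoters matches. The 27 genes have 30 promoters, so these shares are not on the same footing. Of the 8 members above, 6 have a promoter there, and all 6 hold the letters. The letters of a STAT site, TTCNNNGAA, occur in 8.3% of all promoters, in 7 of the 27 genes (25.9%) and in 1 of the 6, Steap4. A match describes letters and is not evidence of a bound site.

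Genes of IL-6 signalling included Socs3 above con and the receptor gene below it. Socs3, the feedback inhibitor that STAT3 induces, was at 10.2 and 10.6 CPM in con and 28.8 in L-con, 2.65-fold, with 38.5 and 40.8 in Ht. The IL-6 receptor gene Il6ra was at 213 and 203 CPM in con and 99.1 in L-con, 2.04-fold below, with 86.2 and 80.2 in Lt. Of 15 measured genes of the list, Socs3 and Socs1 were above and Il6ra was below, against 3.53% and 0.506% of all genes (median 0.10, or 0.36 without con_1 and -0.046 without con_2), and Socs1 did not remain above after the Ht share was taken off. Stat3 itself was at 185 and 155 CPM in con and 263 in L-con, inside the margin. Lrg1, a plasma glycoprotein that is no member of the list, was at 448 and 434 CPM in con and 1236 in L-con, 2.76-fold. It was chosen after its values were seen.

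Several targets of growth hormone were above con. Onecut1 (chr9:74861921-74891781), also known as HNF6, a transcription factor of hepatocytes, was at 10.5 and 12.1 CPM in con, 112 in L-con, against 71.7 and 52.7 in Lt and 0.615 and 0.418 in Ht. It was 8.99-fold over the nearer con library. The STAT5-induced inhibitors Socs2 and Cish were both above. Socs2 was at 25.3 and 11.1 CPM in con and 91.7 in L-con, 3.57-fold, and Cish at 11.3 and 15.4 in con and 54.8 in L-con, 3.48-fold.

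The repressor Bcl6, which growth hormone lowers through STAT5, was at 32.4 and 79.2 CPM in con and 13.3 in L-con, 2.38-fold below. Of 13 measured members, 3 were above and Bcl6 was below, against 3.53% and 0.506% of all genes. By any amount, 5 lay above both con libraries and 5 below both, beside 35.1% and 35.3% of all genes. The 3 above by the margin lay over both Ht samples. The receptor and the main secreted product did not move by the margin: Ghr was at 560.3 and 725 CPM in con and 643 in L-con, and insulin-like growth factor 1 (Igf1) at 816 and 709 in con and 890.4 in L-con. The median of the list was -0.15, or 0.046 without con_1. The epidermal growth factor receptor gene Egfr, abundant in hepatocytes, was at 546 and 624 CPM in con and 1469 in L-con, 2.35-fold, and the pioneer factor Foxa2 at 37.7 and 51.8 in con and 107 in L-con, 2.06-fold.

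The Cish promoter window (chr9:107296409-107296708, plus strand) is shown because TTCNNNGAA occurs 2 times just after its start, at 1 to 9 and at 12 to 20. The letters occur in 3 of the 12 genes of the list that have a promoter in the table, against 8.3% of all promoters, and in 1 of the 2 such genes that were above, since the Onecut1 window does not hold them.
Cish: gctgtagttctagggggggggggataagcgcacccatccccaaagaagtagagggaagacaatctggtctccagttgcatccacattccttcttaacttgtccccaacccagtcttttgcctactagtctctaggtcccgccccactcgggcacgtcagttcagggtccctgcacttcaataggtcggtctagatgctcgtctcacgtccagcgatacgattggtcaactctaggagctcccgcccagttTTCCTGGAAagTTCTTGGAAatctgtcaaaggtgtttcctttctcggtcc

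Genes that differ between the sexes in mouse liver were read beside the spread of con. Moxd1, a monooxygenase-like gene of the endoplasmic reticulum, was at 0 in both con libraries and 25.1 CPM in L-con (305 counts), at least 94.6-fold over the floor of con, with 0.215 and 8.28 in Lt. The male-biased list had 2 of 28 members above (Egfr and Moxd1), against 3.53% of all genes, none below, and a median of 0.44, or 0.25 without con_1 and 0.68 without con_2. The female-biased list had 15 of 30 members measured, of which none was above and 4 were below (Cyp2b10, Cyp3a16, Acot3 and Cyp39a1), against 0.506% of all genes. The median was -1.24, but -0.66 without con_1, -1.95 without con_2 and -0.85 over all with at least 1 count. The con libraries differed in the same genes: the median log2 difference of con_1 from con_2 was -0.45 over the male-biased and 0.92 over the female-biased members.

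Single genes show how far con_1 stood apart. Cyp2a4, a steroid hydroxylase, was at 58.8 and 0.248 CPM in con and 0.329 in L-con, and Mup17 at 1.06 and 971 in con and 1388 in L-con. For both, L-con stood with con_2. Mup19 was at 0.531 and 8.93 CPM in con, 141 in L-con, with 141 and 52.1 in Lt, 14.99-fold over con_2. Of 20 Mup genes measured, 3 were above (Mup14, Mup15 and Mup19), against 3.53% of all genes, but these genes are near-identical copies whose reads can be exchanged.

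Hepcidin and a pair of BMP target genes were below con. Hamp (chr7:30942368-30944032), the peptide hormone that closes the iron exporter ferroportin, was at 1124 and 967 CPM in con, 346 in L-con, with 542 and 415 in Lt, 2.79-fold below. It is counted among acute-phase genes, since IL-6 induces it, and was their only member below. Id1 and Atoh8, target genes of BMP signalling, were both below. Id1 is a member of the iron and heme list, whereas Atoh8 was taken from the 15 genes farthest below. Id1 was at 11.3 and 12.9 CPM in con and 4.28 in L-con, 2.47-fold below, and Atoh8 at 44.2 and 47.3 in con and 14.99 in L-con, 2.88-fold below.

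The ligand Bmp6, made by sinusoidal endothelium, was at 16.8 and 16.7 CPM in con and 8.40 in L-con, 1.93-fold below and just inside the margin. The inhibitor Smad7 was at 24.6 and 27.2 CPM in con and 17.8 in L-con, inside the margin. Alas1, the rate-limiting enzyme of heme synthesis in liver, lay on the other side, at 272 and 182 CPM in con and 793 in L-con, 2.91-fold above. Of 23 measured genes of iron and heme, Steap4, Alas1 and Lcn2 were above and Hamp and Id1 were below, against 3.53% and 0.506% of all genes. The median was 0.20, or 0.026 without con_2. By any amount, 13 lay above both con libraries and 7 below both, beside 35.1% and 35.3% of all genes. The ferroportin gene Slc40a1 was at 241 and 192 CPM in con and 286 in L-con, and the transferrin receptor gene Tfrc at 73.7 and 56.6 in con and 83.8 in L-con, both inside the margin.

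The Hamp promoter window (chr7:30943980-30944279, minus strand) is shown because it holds the letters of both inputs: TTCNNNGAA at -97 to -89 and GGCGCC, the core of a BMP-responsive element, at -109 to -104. GGCGCC occurs in 11.9% of all promoters and in 2 of the 14 iron and heme genes that have one, and TTCNNNGAA occurs in 4 of the 14.
Hamp: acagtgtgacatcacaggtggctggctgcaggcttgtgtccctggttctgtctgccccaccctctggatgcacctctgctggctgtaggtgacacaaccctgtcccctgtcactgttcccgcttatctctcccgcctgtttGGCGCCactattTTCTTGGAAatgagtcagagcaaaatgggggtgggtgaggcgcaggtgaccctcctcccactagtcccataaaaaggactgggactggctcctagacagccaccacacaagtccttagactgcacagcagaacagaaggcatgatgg

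Most genes of fatty acid oxidation, many of them driven by PPARα, lay under con. Of 30 genes of fatty acid oxidation and ketogenesis, 4 were below and none above, against 0.506% of all genes, and the median was -0.36, or -0.56 without con_1. By any amount, 24 lay below both con libraries and none above both, against 35.3% and 35.1% of all genes. Cyp4a14 (chr4:115486200-115496142), a fatty acid ω-hydroxylase, was at 829 and 512 CPM in con, 50.9 in L-con against 185 and 17.01 in Lt, 9.97-fold below and the farthest of all genes named on that side. Its neighbour Cyp4a10 was at 500.1 and 526 CPM in con and 169 in L-con, 2.95-fold below.

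The acyl-CoA thioesterases Acot1 and Acot3 both lay below. Acot1 was at 135 and 89.03 CPM in con and 34.01 in L-con, and Acot3 at 2.39 and 2.65 in con and 0.247 in L-con. Acot1 was 2.59-fold below, and Acot3 was near the floor of detection in L-con. Ppara itself was at 145 and 207 CPM in con and 98.1 in L-con, under both con libraries by 1.48-fold, and carnitine palmitoyltransferase Cpt1a at 586 and 559.6 in con and 453 in L-con. Ppargc1b, a coactivator of mitochondrial genes, was at 12.1 and 10.1 CPM in con and 2.96 in L-con, 3.06-fold below.

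Mitochondrial and other metabolic genes had almost no member past the margin. None of 34 genes of oxidative phosphorylation was above or below, yet 32 lay below both con libraries by some amount, against 35.3% of all genes, with a median of -0.23. None of 31 genes of the urea cycle and amino acid catabolism was past the margin, with 22 below both con libraries by some amount, against 35.3% of all genes (median -0.32, or -0.15 without con_1 and -0.52 without con_2). Lipogenesis (18 genes, median -0.32), cholesterol synthesis (24 genes, median 0.06) and bile acid synthesis and transport (22 genes, median -0.20) had no member above or below. These 3 medians were -0.40, 0.19 and -0.34 without con_1, and -0.15, -0.082 and -0.093 without con_2. Of 20 genes of carbohydrate metabolism only Ppp1r3g, a glycogen-targeting subunit of protein phosphatase, was below, against 0.506% of all genes (median of the list -0.27). Ppp1r3g was at 2.04 and 1.901 CPM in con and 0.247 in L-con, which is the floor of detection there.

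Xenobiotic enzymes had few members past the margin. Of 34 cytochrome P450 genes 1 was below, Cyp2b10, the classical target of the receptor CAR, at 40.6 and 18.8 CPM in con and 4.28 in L-con, 4.03-fold, against 0.506% of all genes. By any amount, 17 of the 34 lay below both con libraries and 3 above both, against 35.3% and 35.1% of all genes (median -0.25). Of 34 transferase genes 1 was below, the glutathione transferase Gsta2, at 73.2 and 65.4 CPM in con and 24.1 in L-con, 2.68-fold. By any amount, 18 of these 34 lay below both con libraries and 8 above both, beside the same shares of all genes (median -0.15). Csad, an enzyme of taurine synthesis, was at 533 and 541 CPM in con and 207 in L-con, 2.57-fold below. Genes of the pericentral zone (15, median 0.17) and of the periportal zone (15, median -0.21) had no member past the margin, with medians of 0.030 and -0.16 without con_1 and 0.303 and -0.41 without con_2.

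**Figure D4:**
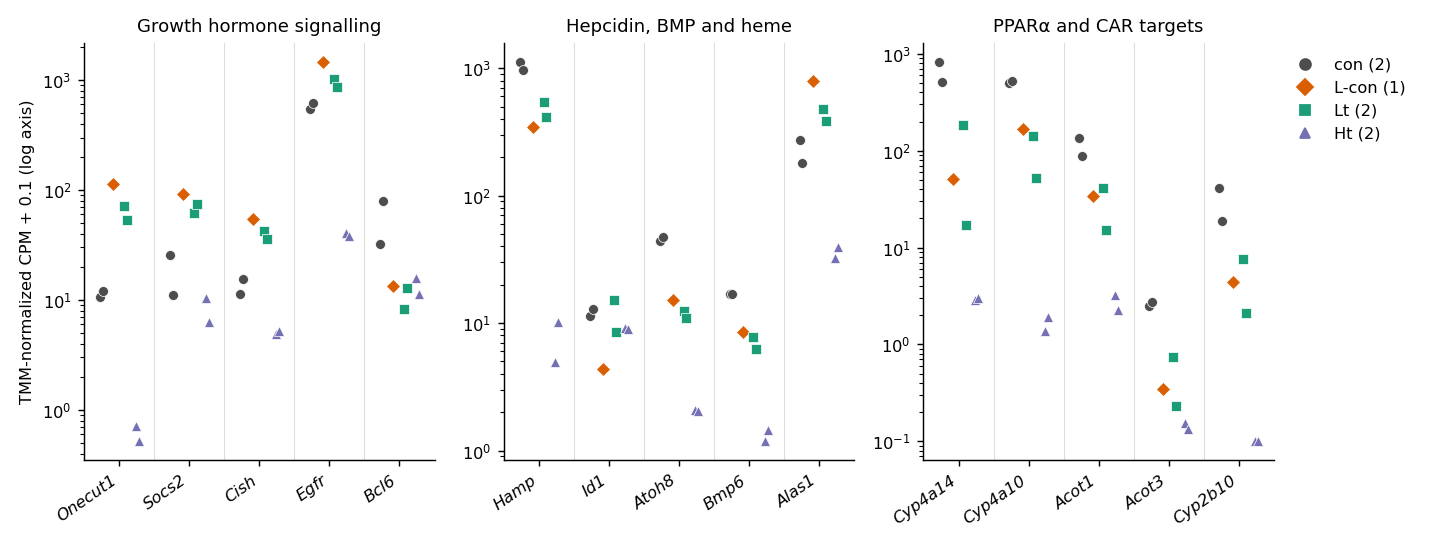
CPM plus 0.1 on a log axis in con, L-con, Lt and Ht of genes of growth hormone, iron and heme, and lipid metabolism, 1 point per library or sample. Onecut1, Socs2, Cish and Alas1 in L-con lie over con, and Hamp, Atoh8, Cyp4a14 and Cyp4a10 lie under it.

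Some factors of protein folding in the endoplasmic reticulum were higher in L-con, and a degradation factor was lower. Creld2 and Sdf2l1, targets of the unfolded protein response, were both above. Creld2 was at 24.6 and 37.8 CPM in con and 101 in L-con, 2.65-fold above, and Sdf2l1 at 28.8 and 34.2 in con and 81.2 in L-con, 2.35-fold above. The major chaperone BiP (Hspa5) was at 750.0 and 879 CPM in con and 1393 in L-con, 1.58-fold, and the transcription factor Xbp1 at 253 and 313 in con and 573 in L-con, 1.83-fold, both inside the margin. Herpud1, which serves degradation of misfolded proteins, was at 832 and 746 CPM in con and 324 in L-con, 2.298-fold below.

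Of 25 genes of integrated stress and the unfolded protein response, 6 were above and 2 below, against 3.53% and 0.506% of all genes. The median was 0.78, but 0.10 over the members with a mean of at least 50 counts, 0.51 without con_1 and 0.45 without con_2. Of the 6, 2 remained above after the Ht share was taken off (1.78% of all genes), Creld2 and Sdf2l1, and 5 after the smaller share. The other 4 were Psat1, Phgdh, Mthfd2 and Nupr1, of which the first 3 are enzymes of serine and one-carbon metabolism. They were high in tumor tissue: Phgdh was at 0.708 and 0.413 CPM in con, 4.53 in L-con and 197 and 205 in Ht. Trib3, a pseudokinase of the integrated stress response, was at 9.47 and 14.8 CPM in con and 4.45 in L-con, 2.01-fold below.

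Most Kupffer cell markers were higher in L-con than in either con library, and tumor tissue had less of them. Of 10 markers, 3 were above, against 3.53% of all genes, and none below. By any amount, 8 lay above both con libraries, against 35.1% of all genes (median 0.94). Marco, a scavenger receptor, was at 14.7 and 6.696 CPM in con, 62.8 in L-con, against 58.1 and 57.3 in Lt and 3.39 and 10.8 in Ht, 4.16-fold. Cd5l, a secreted inhibitor of macrophage apoptosis, was at 159 and 114 CPM in con and 402 in L-con, 2.53-fold, and Timd4, a phosphatidylserine receptor, at 10.0 and 7.77 in con and 23.9 in L-con, 2.32-fold. All 3 lay over both Ht samples.

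The defining lectin of Kupffer cells, Clec4f, was at 192 and 154 CPM in con and 321 in L-con, 1.67-fold and inside the margin, and the complement receptor Vsig4 at 55.04 and 36.1 in con and 98.3 in L-con, 1.78-fold. The summed level of the 10 markers was 1005 and 823 CPM in con and 1575 in L-con. Pan-macrophage markers had a median of 1.13, with 2 of 12 above (Fcgr1 and Aif1, of which Aif1 remained after the Ht share was taken off) and 11 above both con libraries by any amount, against 3.53% and 35.1% of all genes. The receptor Csf1r was at 107 and 72.2 CPM in con and 206 in L-con, and Adgre1, which encodes F4/80, at 47.2 and 29.5 in con and 87.1 in L-con. Ht was higher than L-con in both, at 253 and 289.9 CPM for Csf1r and 118 and 143 for Adgre1.

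Monocyte markers were above con almost throughout. Of 9 measured, 8 were above, against 3.53% of all genes, with a median of 1.98, and all 8 were lower in L-con than in Ht. In 3 of the 8, con had a mean under 10 counts, so that they passed the filter only through L-con. Ly6c2, a surface protein of inflammatory monocytes, was at 1.06 and 0.661 CPM in con, 8.15 in L-con, against 23.99 and 78.6 in Lt and 21.8 and 30.3 in Ht. The chemokine receptor Ccr2 was at 3.097 and 1.49 CPM in con and 17.5 in L-con, 4.99-fold, and Plac8 at 6.99 and 6.94 in con and 34.5 in L-con, 4.67-fold. These 3 genes were also the 3 that remained above after the Ht share was taken off, against 7 after the smaller share. The summed level of the list, 1746 and 1757 CPM in con and 2325 in L-con, came nearly all from fibronectin (Fn1), the measured member that was not above, at 1731 and 1746 CPM in con and 2227 in L-con. Vcan and F13a1 of the same list, at 0.354 and 0.248 CPM in con and 2.47 in L-con for the latter, did not remain above.

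Markers of other blood cells gave few calls. Prtn3, a protease of granulocyte precursors, was at 0.442 and 0.413 CPM in con, 7.82 in L-con, against 15.4 and 10.1 in Lt and 1.45 and 1.32 in Ht, 8.83-fold, but Mpo, Ctsg, Ltf, Fcnb and Ms4a3 of the same list were at 0 in all 3 libraries. Of the neutrophil markers Ly6g was at 0 in all 3 libraries, and Mmp9, a gelatinase, was above, at 0.531 and 0.744 CPM in con, 9.96 in L-con and 159 and 170.3 in Ht. None of 9 markers of T and NK cells, 4 of B and plasma cells and 7 of erythroid cells was above or below. Their con libraries differed, with a median of con_1 over con_2 of 1.48 on the log2 scale for T and NK cells. Prtn3 and Mmp9 passed the count filter only through L-con, as did Batf3 and Ccr7, the dendritic cell markers above.

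Interferon-stimulated genes were higher in L-con by small steps. Of 40, 39 lay above both con libraries by any amount, against 35.1% of all genes, 10 were above by the margin (3.53% of all genes) and none below, with a median of 0.81. Oas3, a sensor of double-stranded RNA, was at 2.65 and 1.16 CPM in con, 12.5 in L-con, against 21.8 and 57.6 in Lt and 84.3 and 102 in Ht. The transcription factor Irf7 was at 51.8 and 43.4 CPM in con and 116 in L-con, 2.23-fold, and the nucleic acid sensor Zbp1 at 9.91 and 4.96 in con and 29.1 in L-con, 2.84-fold. In all 10, L-con lay under both Ht samples, and 6 remained above after the Ht share was taken off and all 10 after the smaller share.

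Guanylate-binding proteins that were low in tumor tissue were read beside them, chosen after their values were seen. Gbp2b was at 3.89 and 2.81 CPM in con, 20.5 in L-con, against 20.2 and 21.99 in Lt and 1.08 and 2.09 in Ht, 4.78-fold. Gbp11 was at 1.504 and 2.23 CPM in con, 12.8 in L-con and 0.335 and 0.244 in Ht, 4.86-fold. Since both genes were picked as low in tumor tissue, an L-con level over both Ht samples follows from that choice. The 10 interferon-stimulated genes above, Gbp4 among them, all lay under both Ht samples. The family has close copies.

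The Oas1a promoter window (chr5:120907476-120907775, minus strand) is shown because 2 overlapping copies of the interferon-stimulated response element (GAAA, any 2 bases, GAAA), at -20 to -11 and -14 to -5, lie just before the start. Oas1a was at 5.22 and 3.22 CPM in con and 13.6 in L-con, 2.46-fold. The element occurs in 3.44% of all promoters, in 17 of the 28 interferon-stimulated genes that have one (60.7%) and in 3 of the 5 such genes that were above.
Oas1a: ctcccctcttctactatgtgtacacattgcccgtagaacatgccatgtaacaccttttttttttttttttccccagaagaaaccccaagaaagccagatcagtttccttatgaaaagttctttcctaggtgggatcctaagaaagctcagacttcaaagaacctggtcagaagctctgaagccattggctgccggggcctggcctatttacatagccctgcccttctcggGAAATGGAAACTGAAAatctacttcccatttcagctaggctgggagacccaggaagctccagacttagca

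Genes of antigen presentation were mostly higher in L-con as well. Of 20 genes of MHC class I presentation none was past the margin, and 19 lay above both con libraries by any amount, against 35.1% of all genes (median 0.59, or 0.36 without con_2). Of 10 genes of MHC class II presentation, the master regulator Ciita and the protease Ctss were above, against 3.53% of all genes, and Ciita remained after the Ht share was taken off, against 1.78%. By any amount, 9 lay above both con libraries (median 1.54). The con libraries differed there by a median of 1.35, and the list's median was 2.30 without con_1 and 0.77 without con_2. H2-Aa, a chain of the class II molecule, was at 90.4 and 21.8 CPM in con and 139.5 in L-con.

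Chemokines and alarmins were partly shared with tumor tissue. Of 24 chemokine genes 14 were measured and 5 were above, against 3.53% of all genes, and 3 remained after the Ht share was taken off, against 1.78%. The median was 0.98, but 0.47 over all with at least 1 count and also with a mean of at least 50, 1.48 without con_1 and 0.66 without con_2. Ccl2, which attracts monocytes through Ccr2, was at 0.531 and 0.496 CPM in con, 5.52 in L-con and 87.4 and 73.3 in Ht. Ccl24, an eosinophil attractant, was at 2.301 and 3.14 CPM in con, 9.55 in L-con and 1.77 and 2.05 in Ht, 2.76-fold and over both Ht samples. Of 14 genes of NF-kB and cytokine signalling, Il33 and its receptor gene Il1rl1 were above, against 3.53% of all genes. The median was 0.59, but 0.28 with a mean of at least 50 counts, 0.83 without con_1 and 0.27 without con_2. Il33 was at 2.39 and 1.82 CPM in con, 6.84 in L-con and 21.2 and 20.4 in Ht.

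Cell cycle and matrix genes held many of the genes above, and tumor tissue had far more of each. Of 31 cell cycle genes 16 were above (median 1.07), against 3.53% of all genes. After the Ht share was taken off 8 remained, against 1.78% of all genes, and 14 remained after the smaller share. Mki67, a marker of dividing cells, was at 4.69 and 2.89 CPM in con, 30.6 in L-con and 281 and 262 in Ht. Top2a, the topoisomerase of dividing cells, was at 3.805 and 2.397 CPM in con and 31.2 in L-con, 7.37-fold.

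Of 31 matrix genes 13 were above (median 0.88), against 3.53% of all genes. After the Ht share was taken off 2 remained above, Mmp9 and osteopontin (Spp1), 6 were below and the median was -0.22, whereas 11 remained above after the smaller share. Spp1 was at 40.1 and 29.1 CPM in con and 135 in L-con. Col3a1, a fibrillar collagen, was at 56.5 and 32.2 CPM in con, 233 in L-con and 4965 and 4327 in Ht, and Col6a2, a microfibrillar collagen, at 6.28 and 5.54 in con, 61.8 in L-con and 1788 and 1558 in Ht. For Col6a2, 4.47% of the Ht level was more than the whole L-con level. Stellate cell and fibroblast markers had 3 of 14 above (Col1a1, Col3a1 and Lum), against 3.53% of all genes. Lum alone remained above after the Ht share was taken off, and all 3 after the smaller share. The median was 0.60, but 0.83 without con_1 and 0.27 without con_2.

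Sinusoidal endothelium and the clock had no member past the margin. None of 12 markers of sinusoidal endothelium was above or below (median -0.08), and the VEGF receptor gene Kdr was at 87.4 and 90.5 CPM in con and 89.7 in L-con. None of 17 genes of VEGF and angiopoietin signalling (median -0.04), 22 clock genes (median -0.23) or 19 immediate-early and heat-shock genes (median 0.04) was past the margin. The median of sinusoidal markers was 0.047 without con_1, that of VEGF and angiopoietin genes 0.14, and that of clock genes -0.064 without con_2, and the last list stood at 0.40 without con_1 and -0.091 without con_2. The clock output gene Dbp was at 0.442 and 8.76 CPM in con and 6.59 in L-con, and the hour of sampling is not given in the sources used here. Of 10 markers of capillaries and large vessels, Ly6a was above, of 8 of cholangiocytes, Spp1, and of 26 transcription factors of hepatocytes, Onecut1 and Foxa2, against 3.53% of all genes. The median of the transcription factors was -0.08, or -0.052 without con_1 and -0.16 without con_2.

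**Figure D5:**
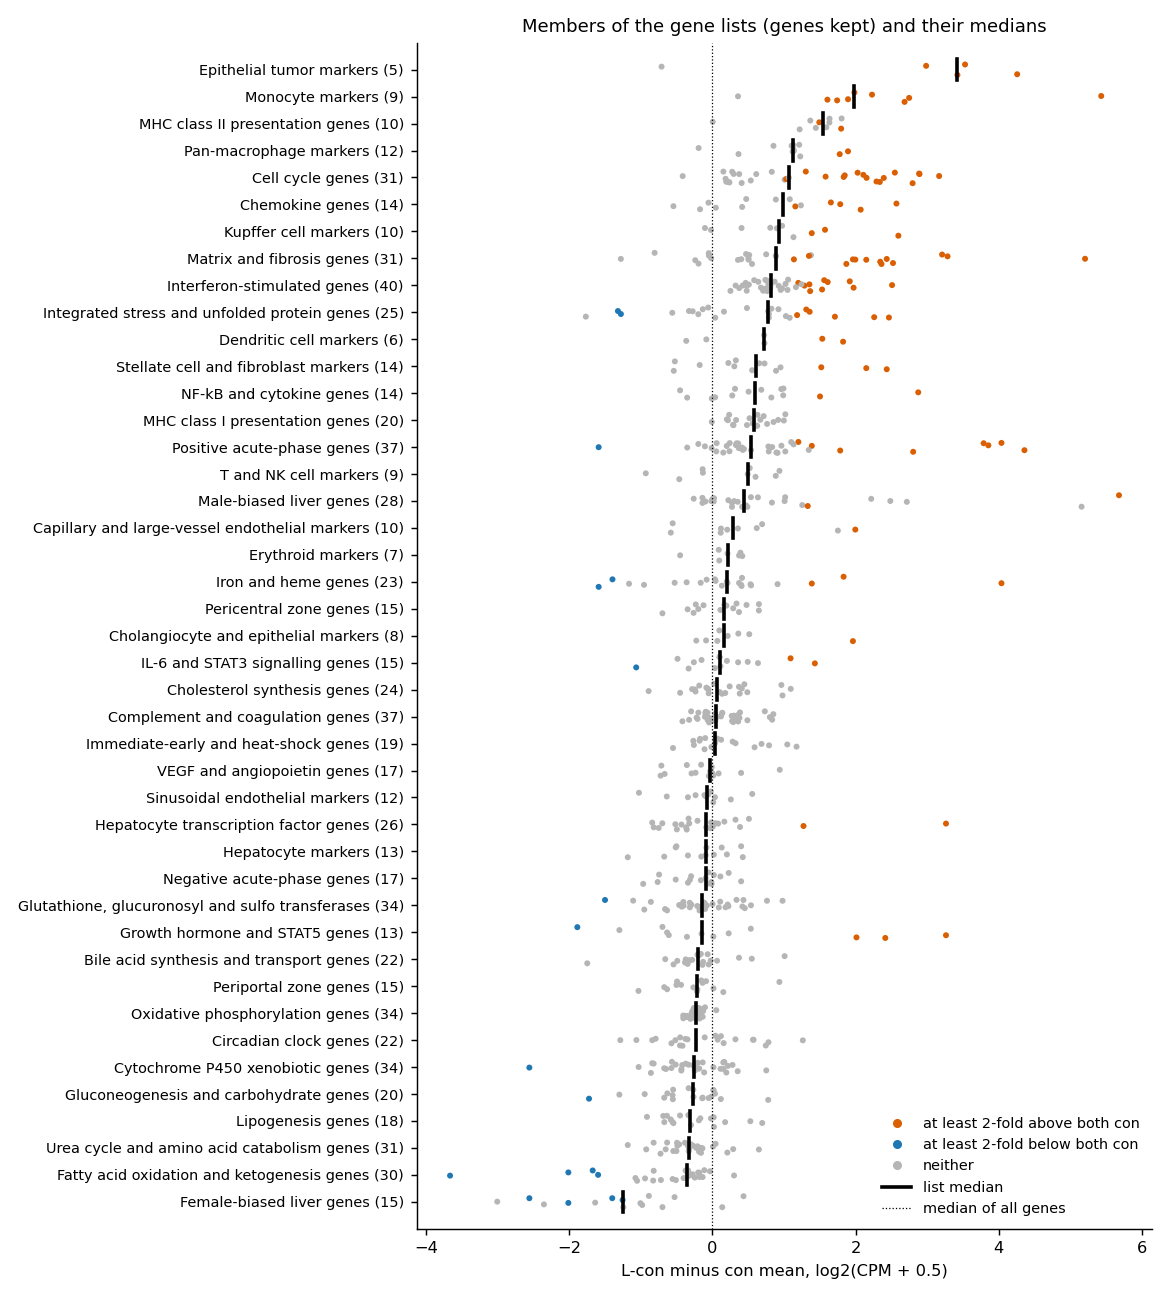
Log2(CPM + 0.5) difference of L-con from the con mean for the measured members of each gene list (points, colored where at least 2-fold above or below both con libraries), with the list median (bar) and the median of all genes (dotted line). Female-biased genes have the lowest median at -1.24, and in the list with the highest, epithelial tumor markers at 3.42, 4 of the 5 measured members passed the count filter only through L-con.

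Among all genes with at least 100 counts, the 15 farthest above the nearer con library were split by their level in tumor tissue. Moxd1, Mup19, Orm2, Saa2, Saa1, Onecut1, Lcn2 and Gapdh lay over both Ht samples. Vcan, S100a6, Flnc, Col6a2, Mmp9, the long noncoding RNA Gm42047 and Top2a lay under both. S100a6, a calcium-binding protein of proliferating cells, was at 1.42 and 0.248 CPM in con, 43.6 in L-con and 1648 and 1130.0 in Ht.

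The 15 farthest below were Cyp4a14, Fam13a, Nipal1, Cyp2b10, the processed pseudogene Gm12751, Dclk3, Ppargc1b, Slc17a8, Cyp4a10, Atoh8, Hamp, Gsta2, the long noncoding RNA Gm30784, Acot1 and Csad. Fam13a was at 33.8 and 40.3 CPM in con, 7.74 in L-con, with 6.02 and 6.34 in Lt, 4.16-fold. Nipal1, a magnesium transporter, was at 28.8 and 12.7 CPM in con and 2.72 in L-con, 4.11-fold. The kinase Dclk3 was at 11.6 and 12.7 in con and 3.05 in L-con, and the vesicular glutamate transporter Slc17a8 at 25.04 and 41.4 in con and 8.15 in L-con. In both, the Lt libraries lay under con as well, at 2.79 and 2.91 CPM for Dclk3 and 11.5 and 4.66 for Slc17a8.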

How the data were processed

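The deposited values are counts of reads per gene, made by the authors from RNA of whole tissue. Per the labels, the submitters' processing notes name CASAVA, HISAT2 2.0.5, featureCounts 1.5.0-p3 and GRCm38 (mm10); the annotation release and strand setting are not given in the sources used here, so overlapping genes on opposite strands cannot be told apart. The table lists 54532 genes, of which 21993 had a count in the 3 libraries and 13446 a mean of at least 10 counts. No per-sample column was left unmapped (0).

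Counts were scaled to CPM by TMM factors of edgeR 4.0.16 (R 4.3.3) over 13 tissue libraries. The methods of the study describe 2 of the 3 Ht libraries as identical samples. These were summed as 1 sample, which leaves 2. Margins, list counts and medians were computed with Python 3.11.15, pandas 2.3.3 and numpy 2.4.6, and figures drawn with matplotlib 3.10.9. The calling step was tested on simulated data. Named genes are members of described lists, and the 15 genes farthest above and below among those past the 2-fold margin with at least 100 counts in L-con, or in each con library for genes below. The comparison, the 46 lists and their members were chosen with earlier results of these data known. Alternatives covered scaling (TMM over the 3 libraries, total counts, DESeq2 1.42.0), filters, pseudocounts, margins and leaving out a con library.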

Additional observations from a re-analysis of the deposited data

How the results depend on the processing

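No paired analysis was possible, since con came from mice given no tumor cells and L-con was taken after injection of Mc38 cells. The counts above and below moved with the stringency: 208 and 42 genes with a mean of at least 50 counts, 250 and 27 with a pseudocount of 2 CPM, 1077 and 342 at a margin of 1.5-fold, 90 and 4 at 4-fold, and 240 and 142 with 4.47% of the Ht level taken off. A pseudocount of 0.1 CPM gave 112 below. Leaving out a con library gave 736 to 1049 above and 200 to 302 below: 1049 and 200 without con_1, 736 and 302 without con_2. The counts stayed within 1.5 times with no filter (628 and 79), by total counts (489 and 48), by DESeq2 size factors (472 and 70), with 1.19% of the Ht level taken off (401 and 72) and by TMM over the 3 libraries (445 and 53). The median share of the Ht level was 1.19% by the planned rule, 2.56% by total counts (14 genes), 4.47% without the limit in sorted cells and 2.1% with both (197 genes). List medians rested on single con libraries: leaving out either one moved 15 of 46 by more than their spread, with shifts of up to 0.77, and changed the sign of 3 or 7, all under 0.5 in size. Of the medians of at least 0.5, 4 changed sign under other settings: dendritic cells to -0.37 and epithelial tumor markers to -0.71 with a mean of at least 50 counts, stellate cells to -0.015 and matrix genes to -0.22 with 4.47% of the Ht level taken off. That step also turned the log2 difference of Col1a1 (-0.21), Col3a1 (-0.73), Col6a1 (-4.41), Col6a2 (-3.68), F13a1 (-0.68), Lgals1 (-5.31), Phgdh (-1.07), Psat1 (-0.96), S100a11 (-2.85), S100a6 (-1.26), Thbs1 (-2.14) and Vcan (-0.21). Of 120 named genes, 116 were past the margin by total counts and by TMM over the 3 libraries, 120 by DESeq2 size factors and with a pseudocount of 0.1 CPM, 99 with a pseudocount of 2 CPM, 81 with 4.47% and 111 with 1.19% of the Ht level taken off. With 1.19%, a share set by 1 gene with 2 counts in L-con, no named gene and no list median of at least 0.5 changed sign. The cause of each move was not tested beyond what the alternative itself changes. With 1 L-con library, no spread among mice at 12 dpi can be given.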

Other observations

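Some genes were higher in L-con than in con, Lt and Ht. Gapdh, the glycolytic enzyme often used as a reference, was at 3.097 and 4.46 CPM in con, 55.9 in L-con, against 7.09 and 5.37 in Lt and 5.57 and 3.34 in Ht. One library of medium tumor content at 11 dpi (Mt2_2) was higher than L-con, at 75.6 CPM, and the other 5 libraries of that content were between 3.70 and 6.25. The gene model of Gapdh overlaps that of Iffo1, which was at 9.03 and 6.45 CPM in con and 7.58 in L-con. The Gapdh levels rest on 35 and 54 counts in con and 679 in L-con. Whether reads matching other copies of its sequence were lost from the count was not tested. Genes known to share sequence with ribosomal RNA were also higher: CT010467.1 was at 1224 and 1006 CPM in con and 3729 in L-con, Gm23935 at 347 and 337 in con and 1508 in L-con, and Lars2 at 108 and 144 in con and 497 in L-con. In all 3, L-con was the highest of the 13 tissue libraries. Their part in other results was not tested.

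Several other genes were above con. The pseudogene Serpina4-ps1 was at 55.04 and 71.3 CPM in con, 415 in L-con, against 510.3 and 323 in Lt and 0.9504 and 0.905 in Ht. The galactosyltransferase gene B3galt1 was at 17.9 and 27.2 CPM in con, 112 in L-con, against 84.6 and 81.2 in Lt and 1.81 and 1.77 in Ht. The lipocalin Obp2a was at 0.177 and 1.24 CPM in con, 7.49 in L-con, with 4.297 and 3.56 in Lt, and Derl3, a factor of protein degradation at the endoplasmic reticulum, at 0.708 and 3.31 in con and 10.9 in L-con. The phospholipid flippase gene Atp11a was at 14.5 and 20.7 CPM in con and 101 in L-con, but was as high in Ht, at 91.9 and 90.9. These genes were chosen after their values were seen.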
